A study of Mus musculus with 3 samples.

Results

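Complement RNA was followed in single macrophages and dendritic cells (DCs) of the mouse heart through 9 genes, found by symbol in the gene lists of the 3 libraries, which hold 27998 genes in common. The genes are C1qa, C1qb and C1qc, C3 and C4b, Cfp and Cfb, and the receptors C3ar1 and C5ar1. One library holds macrophages sorted 11 days after myocardial infarction, from C57BL/6 mice of genotype Cx3cr1CreER-YFP/+:R26Td/+, in which a Cre recombinase driven by the Cx3cr1 promoter can switch on a red reporter. It was set against steady-state macrophages of the same genotype, and against a steady-state library of macrophages and DCs from wild Type C57BL/6 mice. Mice of the 3 libraries were 8 to 12 weeks old, and all hearts were digested with flavopiridol, an inhibitor of transcription, in the buffer. Macrophages were gated as CD45+ CD64 low to high CD11b+, and DCs as CD45+ CD64- CD11c+ with intermediate to high MHC class II. Each group is 1 library, the number of pooled animals is not given in the sources used here, and no sham-operated group was analysed here. No difference below therefore has a replicate check, and intervals cover counting error only, not variation between animals.

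Complement is a cascade of plasma proteins that marks targets for uptake and draws in leukocytes. C1q, assembled from the A, B and C chains encoded by C1qa, C1qb and C1qc, binds antibodies and dying cells and starts the classical pathway, in which C4 and then C3 are cleaved. Factor B, from Cfb, joins with C3b in the alternative pathway, and properdin, from Cfp, stabilises that complex. C3ar1 and C5ar1 encode the receptors for the fragments C3a and C5a. Tissue macrophages are a main source of C1q, whereas most plasma C3 and factor B come from liver.

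After filters on cells and removal of likely doublets, 4386 day 11 cells, 1699 steady-state cells and 1190 cells of the macrophage and DC library lay outside DC status and outside other cell types. Their median UMI counts (unique molecular identifiers, each standing for 1 captured RNA molecule) were 8106, 10726 and 5921 per cell. Levels below are UMIs summed over a group of cells, scaled to 1000000 UMIs of that group (CPM). The chemistry tags the 3′ end of each RNA, so a level does not scale with transcript length. UMIs of at least 3 of 6 macrophage markers were seen in 97.8%, 99.3% and 72.9% of these cells. The last library therefore still held cells short of macrophage markers, and its DC markers summed to 616 CPM, against 47.9 CPM at day 11 and 30.3 CPM in steady-state macrophages. Pairs of libraries shared 8, 11 and 7 cell barcodes.

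The C1q genes lie side by side on the minus strand of chromosome 4 within 18675 bases (mm10, GENCODE annotation). C1qb spans 136880129 to 136886187, C1qc 136889804 to 136893065 and C1qa 136895917 to 136898803, with 3616 bases between C1qb and C1qc and 2851 between C1qc and C1qa. On chromosome 17 lie C4b (34728380 to 34743882), Cfb (34856374 to 34862518) and C3 (57203970 to 57228136). C3ar1 lies on chromosome 6 (122847138 to 122856161), C5ar1 on chromosome 7 (16246743 to 16259540) and Cfp on chromosome X (20925454 to 20931555). All 9 are protein-coding genes on the minus strand. Of the exonic bases of Cfb, 79.5% are shared with Gm20547, an overlapping gene that also runs through C2 and had 0 UMIs in each library. Reads in the shared bases may not have been assigned, so Cfb levels are uncertain. C4a, a near copy of C4b, is not in the files' gene list, so C4b levels are uncertain too.

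Sequence before the RefSeq start was matched for 6 of the 9 genes (build GRCm38.p6). It is shown 5′ to 3′ for 2 neighbouring C1q chains, which encode parts of 1 complex, and for C3 and C3ar1. By Ly6c2 status at day 11, C3 was more than 2-fold higher in positive cells and C3ar1 lower by less than 2-fold. Without the positive cell richest in it, C3ar1 was 0.57 times the level of negative cells at day 11 and 0.82 times at steady state. Capitals mark letters of the motifs searched, and bases inside the GENCODE gene model are left off.
C1qb (chr4:136886201-136886450, minus strand): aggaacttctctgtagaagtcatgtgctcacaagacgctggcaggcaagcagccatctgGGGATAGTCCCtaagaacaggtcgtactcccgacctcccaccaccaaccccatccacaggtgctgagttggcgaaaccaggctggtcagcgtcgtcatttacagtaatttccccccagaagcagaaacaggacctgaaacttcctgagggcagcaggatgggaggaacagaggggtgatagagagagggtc
C1qc (chr4:136893066-136893164, minus strand): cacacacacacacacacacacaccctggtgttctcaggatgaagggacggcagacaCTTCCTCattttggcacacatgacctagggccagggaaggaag
C3 (chr17:57228137-57228386, minus strand): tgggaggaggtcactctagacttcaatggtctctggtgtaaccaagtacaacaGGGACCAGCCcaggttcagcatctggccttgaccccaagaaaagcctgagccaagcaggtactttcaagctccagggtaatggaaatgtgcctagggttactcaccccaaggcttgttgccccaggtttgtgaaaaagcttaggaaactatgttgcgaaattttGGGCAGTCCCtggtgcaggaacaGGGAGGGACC
C3ar1 (chr6:122856162-122856407, minus strand): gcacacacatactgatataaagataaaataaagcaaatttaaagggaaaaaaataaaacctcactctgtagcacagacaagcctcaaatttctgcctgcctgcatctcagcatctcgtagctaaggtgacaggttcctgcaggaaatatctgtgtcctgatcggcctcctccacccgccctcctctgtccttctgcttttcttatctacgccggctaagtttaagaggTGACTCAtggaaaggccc
Both strands of the 250 bases before each RefSeq start were searched for 5 motifs. GAGGAAG, a core of PU.1 sites, occurred in the C1qc window (printed as CTTCCTC) and in 10.7% of 32536 promoters. TGACTCA, the AP-1 motif, occurred in the C3ar1 window and in 4.45% of promoters. An NF-kB form, GGGA followed by any 4 bases and CC, occurred in the C3 window at 3 places, in the C1qb window at a pair of overlapping places and in the C1qc window once, inside the gene model, and in 17.7% of promoters. The MAF motif TGCTGAC (3.79% of promoters) and an IRF form, GAAA followed by any 2 bases and GAAA (2.98%), were in none of the 6 windows, and the C5ar1 and Cfp windows held none of the 5 motifs. These matches describe letters only.

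The C1q chains were among the most abundant RNAs of cardiac macrophages in both macrophage libraries. C1qa stood at 6557 CPM at day 11, against 7216 CPM in steady-state macrophages and 3194 CPM in the macrophage and DC library. C1qb stood at 7304 CPM at day 11, against 7131 and 3349 CPM. C1qc stood at 4983 CPM at day 11, against 5914 and 2347 CPM. Ranked by UMIs among detected genes, C1qb, C1qa and C1qc were 10, 12 and 17 of 16550 at day 11, and 13, 11 and 18 of 15973 at steady state. In the macrophage and DC library they ranked 47, 51 and 85 of 14112. Day 11 over steady-state macrophages, the ratios were 0.91 for C1qa (95% interval 0.90 to 0.91), 1.02 for C1qb (1.02 to 1.03) and 0.84 for C1qc (0.84 to 0.85). The sum of the chains was 18845 CPM at day 11 and 20260.1 CPM at steady state.

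**Figure D1:**
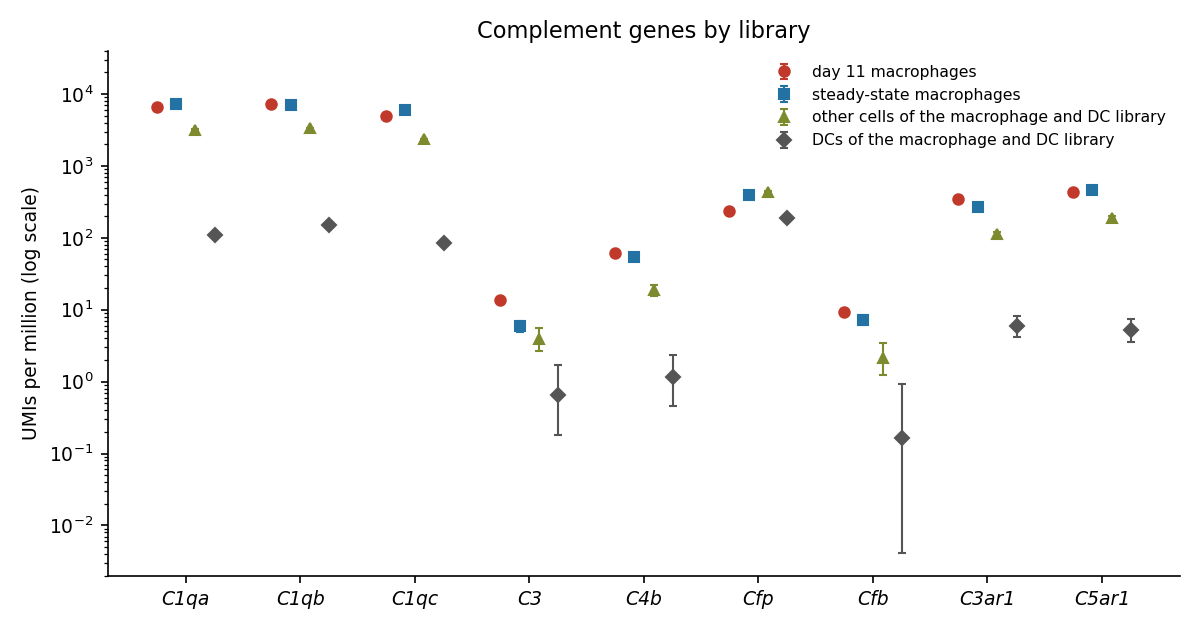
Level of each gene in CPM on a log scale, for day 11 macrophages, steady-state macrophages, the non-DC cells of the macrophage and DC library, and its DCs. Bars are exact 95% Poisson intervals of the UMI counts. The C1q chains lie between 4983 and 7304 at day 11, far above C3 at 13.7 and Cfb at 9.41.

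Among the other 6 members C5ar1 stood first in both macrophage libraries, and C3 and Cfb stood last. At day 11 the receptors C5ar1 (431 CPM) and C3ar1 (342 CPM) came first, then Cfp (239.5 CPM), C4b (61.4 CPM), C3 (13.7 CPM) and Cfb (9.41 CPM). In steady-state macrophages C5ar1 (464 CPM) was followed by Cfp (389 CPM), C3ar1 (268 CPM), C4b (53.4 CPM), Cfb (7.15 CPM) and C3 (5.89 CPM). The steady-state Poisson intervals of Cfb (6.08 to 8.36 CPM) and C3 (4.93 to 6.99 CPM) overlapped, and those of the other neighbours in either order did not. The macrophage and DC library gave Cfp (435 CPM) first among the 6, then C5ar1 (191 CPM), C3ar1 (114 CPM), C4b (18.5 CPM), C3 (3.88 CPM) and Cfb (2.13 CPM).

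Between day 11 and steady-state macrophages, C3, the protein on which the pathways converge, was the only member past 2-fold. It gave 559 UMIs (13.7 CPM) at day 11, against 131 UMIs (5.89 CPM) in steady-state macrophages, a ratio of 2.32 (1.91 to 2.83). That is 1 of 9 members higher and 0 lower, where 2.24% of the 9123 genes compared were at least 2-fold higher and 3.21% at least 2-fold lower. After each cell was thinned to 3000 UMIs, C3 was seen in 3.09% of day 11 cells (2.59% to 3.65%), against 1.47% of steady-state cells (0.95% to 2.16%). Without thinning the shares were 8.09% and 5.41%. In the DCs of the third library, 0 of 538 thinned cells had a C3 UMI.

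Cfp went the other way by less than 2-fold. It stood at 239.5 CPM at day 11 and 389 CPM in steady-state macrophages, a ratio of 0.62 (0.60 to 0.63), and was seen in 36.6% of thinned day 11 cells against 55.4% of thinned steady-state cells. C3ar1 was 1.28 times its steady-state level (1.24 to 1.32), C4b 1.15 times (1.07 to 1.23), Cfb 1.32 times (1.09 to 1.59) and C5ar1 0.93 times (0.91 to 0.95). The median log2 ratio was 0.03 over the 9 members and −0.09 over all genes compared. C1q and C3 thus did not change in proportion: there were 0.72 C3 UMIs per 1000 C1q UMIs at day 11, against 0.29 in steady-state macrophages.

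Both macrophage libraries carried RNA of other cells. Fibroblasts, which are known to make complement proteins, had markers (8 genes) summing to 282 CPM in the day 11 cells and 227 CPM in the steady-state cells. Among cells without a UMI of Col1a1, Col1a2, Col3a1 or Dcn, a choice made after seeing the data, C3 stood at 13.1 CPM at day 11 and 5.61 CPM at steady state, a ratio of 2.33. Resident macrophage markers (5 genes) summed to 389.8 CPM at day 11, against 1882 CPM at steady state. The part of that shift in the library ratios was not tested.

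Against the macrophage and DC library, 8 of 9 members were at least 2-fold higher at day 11, where 9.33% of 8905 genes were, and Cfp was lower at 0.55 times (0.53 to 0.57). Among cells with at least 3 macrophage markers, a choice made after seeing the data, 4 of 9 were past 2-fold, where 7.67% of genes were: C3 (2.80 times), C4b (2.5), C3ar1 (2.31) and Cfb (4.13, from 13 UMIs in the wild Type library). The C1q chains were then 1.60, 1.74 and 1.65 times higher for A, B and C. Infarction, genotype, sort and library cannot be told apart here.

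The libraries also differed in how many cells had little C1q. Thinned to 3000 UMIs, cells held a median of 60 C1q UMIs at day 11, 61 in steady-state macrophages and 31 in the macrophage and DC library. The 90th percentiles were 86, 83 and 72.9 UMIs. Under 10 C1q UMIs were found in 4.50% of day 11 cells (3.90% to 5.17%), 1.18% of steady-state cells (0.72% to 1.81%) and 38.9% of cells of the macrophage and DC library (35.9% to 41.9%). DCs of that library had a median of 0, and 98.0% of them held under 10.

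**Figure D2:**
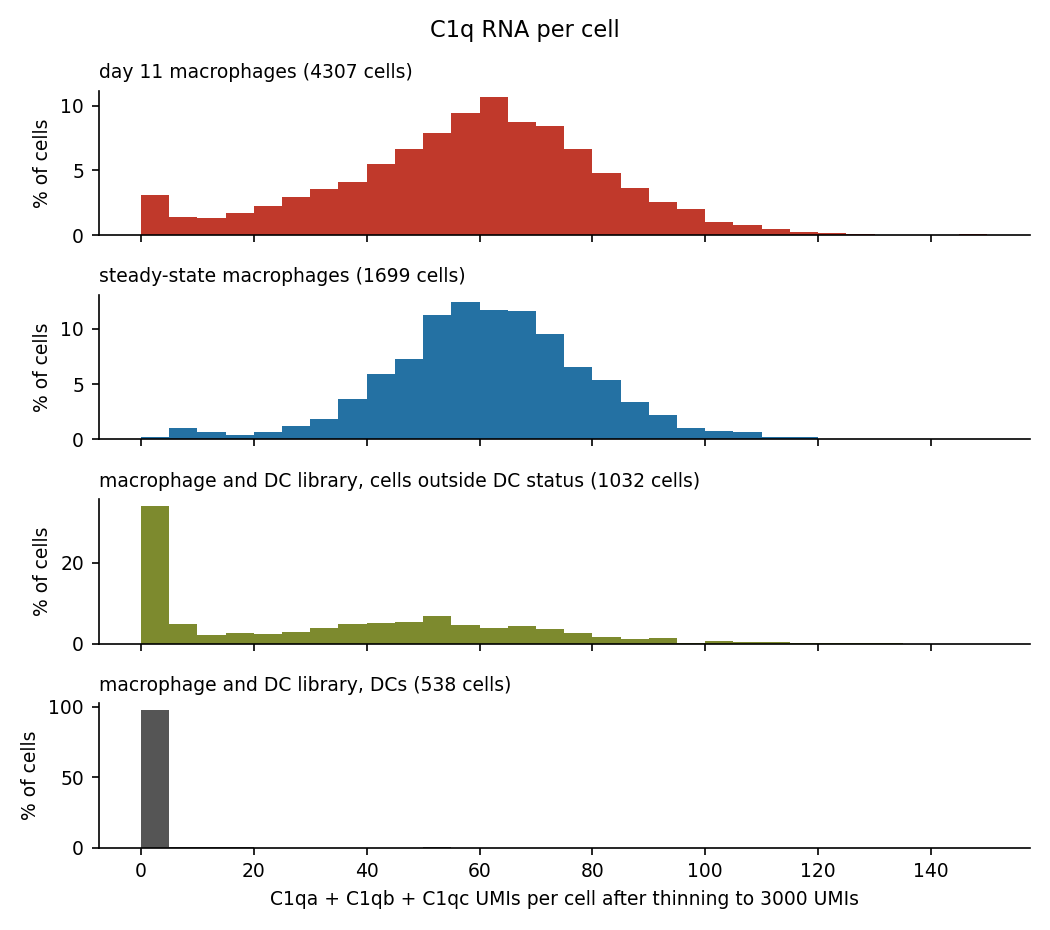
Percent of cells by summed C1qa, C1qb and C1qc UMIs per cell after thinning to 3000 UMIs, in bins of 5 UMIs, for the 3 libraries and the DCs. Day 11 and steady-state macrophages centre on 60 and 61 UMIs, with a low shoulder of 4.50% of cells under 10 at day 11, and the macrophage and DC library has a second group near 0.

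A cell with some C1q UMIs need not make C1q. The 12 day 11 cells with endothelial markers held 3333 C1q CPM and the 28 day 11 cells of DC status 2883 CPM, against 18845 CPM in the macrophages around them. All 10 such endothelial-marker cells deep enough to thin had a C1q UMI, and so did 99.9% of day 11 macrophages. That share alone therefore does not tell macrophages from these cells. The day 11 cells of DC status also held 947 CPM of macrophage markers, against 2739 CPM in the macrophages. Whether the C1q UMIs of these cells came from RNA of other cells, doublets or the cells themselves was not tested. In the macrophage and DC library, DCs stood at 346 C1q CPM at a median of 10861 UMIs per cell, deeper than the 5921 of the other cells.

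The 194 day 11 cells with under 10 C1q UMIs were chosen by C1q, so what follows describes them. Outside the members, the 8 genes most enriched in them were Ccl17, Ly6c2, Cd209a, Plac8, Hp, Ass1, Klrd1 and Napsa. Monocyte markers (5 genes) summed to 2164 CPM in them, against 365 CPM in the other 4113 thinned cells, and DC markers (8 genes) to 425 CPM against 29.95 CPM. C3 stood at 32.1 CPM against 12.8 CPM, Cfb at 30.5 CPM against 8.42 CPM and Cfp at 454 CPM against 229.6 CPM. C4b was at 12.8 CPM against 63.8 CPM, C3ar1 at 165 CPM against 350.4 CPM and C5ar1 at 248.0 CPM against 440.2 CPM. The low-C1q cells thus had more C3, Cfb and Cfp RNA and less of C4b and the receptors, and the part of monocyte or DC RNA in this was not tested.

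In the macrophage and DC library the 401 low-C1q cells were led by Cd209a, Ccl5, Klrd1, Cd24a, Ccl17, Ccl22, Napsa and Mcemp1. Their DC markers summed to 1243 CPM, against 79.8 CPM in the other 631 cells, although they had not met the rule for DC status. C5ar1 was at 14.8 CPM in them against 327 CPM, C3ar1 at 14.8 CPM against 196 CPM and C4b at 1.09 CPM (4 UMIs) against 34.3 CPM. Cfp was higher in the low-C1q cells, at 524 CPM against 380.0 CPM. Unlike at day 11, C3 and Cfb were not higher in them. C3 was at 3.28 CPM (12 UMIs) against 4.57 CPM, and Cfb at 1.37 CPM (5 UMIs) against 3.05 CPM.

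The C1q chains had like proportions in the 3 libraries, but not in every group of cells. C1qa, C1qb and C1qc gave 34.8%, 38.8% and 26.4% of C1q UMIs at day 11, 35.6%, 35.2% and 29.2% in steady-state macrophages, and 35.9%, 37.7% and 26.4% in the macrophage and DC library. In the last library Ccr2 positive cells had 32.3%, 44.8% and 22.9%, against 37.8%, 34.1% and 28.1% in Ccr2 negative cells. Across thinned day 11 cells, C1qa followed C1qb with a Spearman rho of 0.64 (4307 cells), C1qc with 0.64, and C1qb followed C1qc with 0.61. The C1q sum followed C5ar1 with a rho of 0.19, C3ar1 with 0.18, Cfp with −0.06 and C3 with −0.09. These are descriptions over cells of 1 library, which share free RNA, and weak values at such sparse counts are no finding. In the macrophage and DC library, which mixes low-C1q and high-C1q cells, the C1q sum and C5ar1 gave 0.62 over 1032 cells.

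Cells were split by RNA of a marker gene, positive at 2 or more UMIs and negative at 0, within 1 library at a time. Timd4 is used as a marker of long-lived resident macrophages, and Ccr2 and Ly6c2 as markers of monocytes and their recent progeny. Saa3, an acute phase gene, and Gpnmb were compared at day 11 alone, since under 30 steady-state cells were positive. The splits overlap. At steady state 184 of the 574 Ccr2 positive cells were also Timd4 positive, and the 574 cells held 1312 CPM of resident macrophage markers. A split thus describes RNA of a marker gene and not the origin of a cell. Positive cells were deeper than negative cells in these splits, for example 11389 against 7957 median UMIs for Saa3 and 15808 against 9074 for Ccr2 at steady state. A deeper cell has more chance to show any gene, so levels are given as CPM and shares after thinning.

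**Figure D3:**
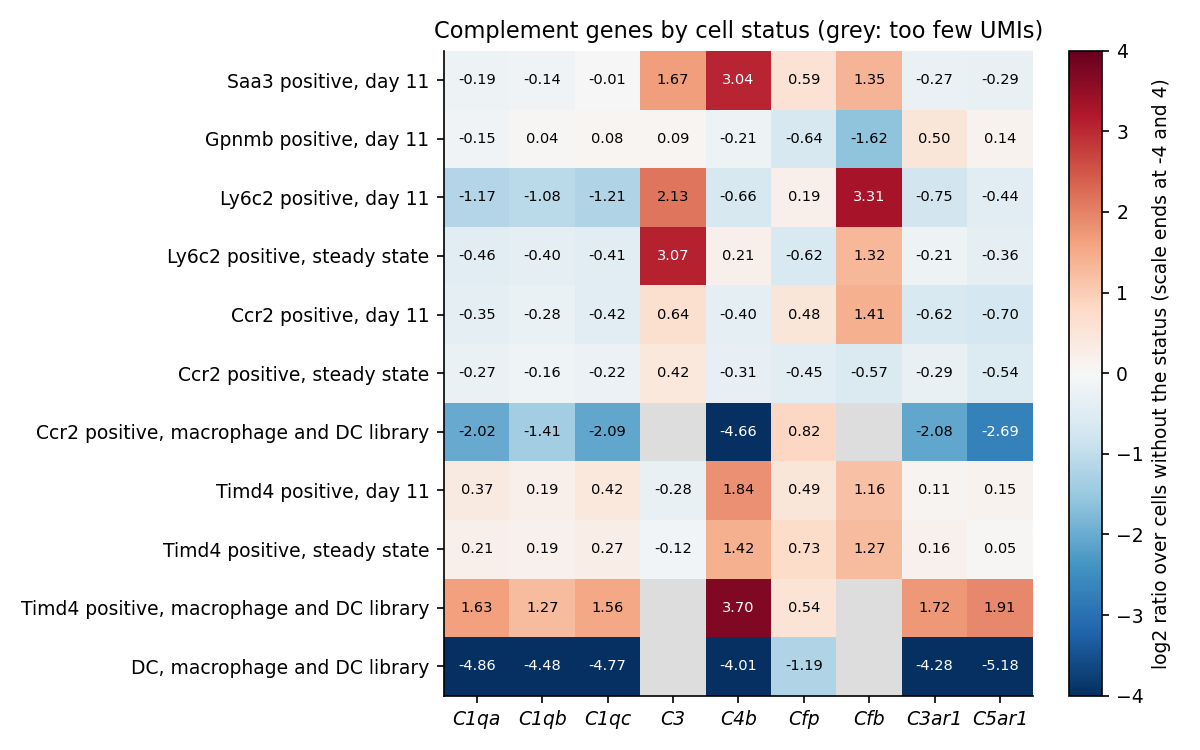
log2 ratio of CPM in status positive over negative cells for each gene, by library, with DCs over other cells in the bottom row. Red is higher and blue lower in the positive cells, grey marks pairs with too few UMIs, and the strongest red cells are C4b by Saa3 and Timd4 status, C3 by Ly6c2 status at steady state and Cfb by Ly6c2 status at day 11.

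C4b, a classical pathway component downstream of C1q, was far higher in Saa3 positive day 11 macrophages. The 134 positive cells held 681 C4b UMIs (362 CPM), against 1596 UMIs (44.1 CPM) in 3988 negative cells, a ratio of 8.22 (7.5 to 9.0). C4b was seen in 52.6% of positive cells (43.8% to 61.3%) against 8.41% of negative cells (7.56% to 9.33%) after thinning, and in 0.37% of the DCs of the third library. Without thinning, 91 of the positive and 686 of the negative cells had a C4b UMI. C3 was higher too, with 38.8 CPM in positive and 12.2 CPM in negative cells, a ratio of 3.17 (2.44 to 4.07), and was seen in 11.3% against 2.76% of thinned cells. Cfb had a ratio of 2.55 (1.79 to 3.54), but 1 cell held 23 of its 41 UMIs, and without that cell the ratio was 1.12 (0.66 to 1.81). These 3 of 9 members were past 2-fold higher, where 2.09% of 8953 genes were. The C1q sum was 17424 CPM in positive and 18964 CPM in negative cells, so the C1q chains, C3ar1 (0.83 times), C5ar1 (0.82) and Cfp (1.5) stayed under 2-fold.

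Fibroblast markers were lower in the Saa3 positive cells, 165 CPM against 288 CPM. Monocyte markers summed to 596 CPM in positive and 437 CPM in negative cells, resident macrophage markers to 456 CPM against 375 CPM and neutrophil markers to 71.3 CPM against 44.8 CPM. Among cells without a Col1a1, Col1a2, Col3a1 or Dcn UMI, C4b stood at 422 CPM in Saa3 positive and 36.6 CPM in Saa3 negative cells, a ratio of 11.5. Timd4 status overlapped little: 6 cells were positive for both. C4b stood at 332 CPM in the 110 Saa3 positive cells with no Timd4 UMI and 150.5 CPM in the 113 Timd4 positive cells with no Saa3 UMI, against 36.1 CPM in the 3713 cells with neither. High C4b was thus seen in Saa3 positive and in Timd4 positive cells apart from each other.

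C4b was also higher in Timd4 positive macrophages in each library. At day 11 it stood at 181 CPM in 132 positive and 50.4 CPM in 4061 negative cells, a ratio of 3.58 (3.16 to 4.04). At steady state it stood at 76.2 CPM in 602 positive and 28.5 CPM in 754 negative cells, a ratio of 2.67 (2.29 to 3.12). In the macrophage and DC library it stood at 113 CPM in 63 positive and 8.71 CPM in 1044 negative cells, a ratio of 13.0 (8.68 to 19.3). Thinned shares were 30.5% against 9.03%, 18.6% against 7.82% and 16.9% against 2.67%. The gap in the macrophage and DC library was narrower among its cells without a Ccr2 UMI. There C4b stood at 120 CPM in 57 Timd4 positive cells and 26.8 CPM in 400 cells without a Timd4 UMI.

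Cfb had 20.3 CPM in Timd4 positive and 9.08 CPM in Timd4 negative day 11 cells (ratio 2.23, 1.52 to 3.18), and 11.1 against 4.58 CPM at steady state (ratio 2.41, 1.64 to 3.63). Without the 1 positive cell richest in Cfb, the day 11 ratio was 1.92. C4b and Cfb were the 2 of 9 members past 2-fold in each macrophage library, where 3.93% of genes were higher at day 11 and 0.91% at steady state. The C1q sum was 1.25 times higher in Timd4 positive cells at day 11 and 1.16 times at steady state. Cfp was 1.40 and 1.66 times higher, and C3 was 0.82 and 0.92 times its level in negative cells with intervals that reach past 1. In the macrophage and DC library 6 of the 7 members compared were past 2-fold, where 15% of genes were, and DC markers summed to 74.5 CPM in positive and 679 CPM in negative cells. Among its cells without a Ccr2 UMI, 2 members were past 2-fold. No share over all genes is given for those cells, so that count has no background to be read against.

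**Figure D4:**
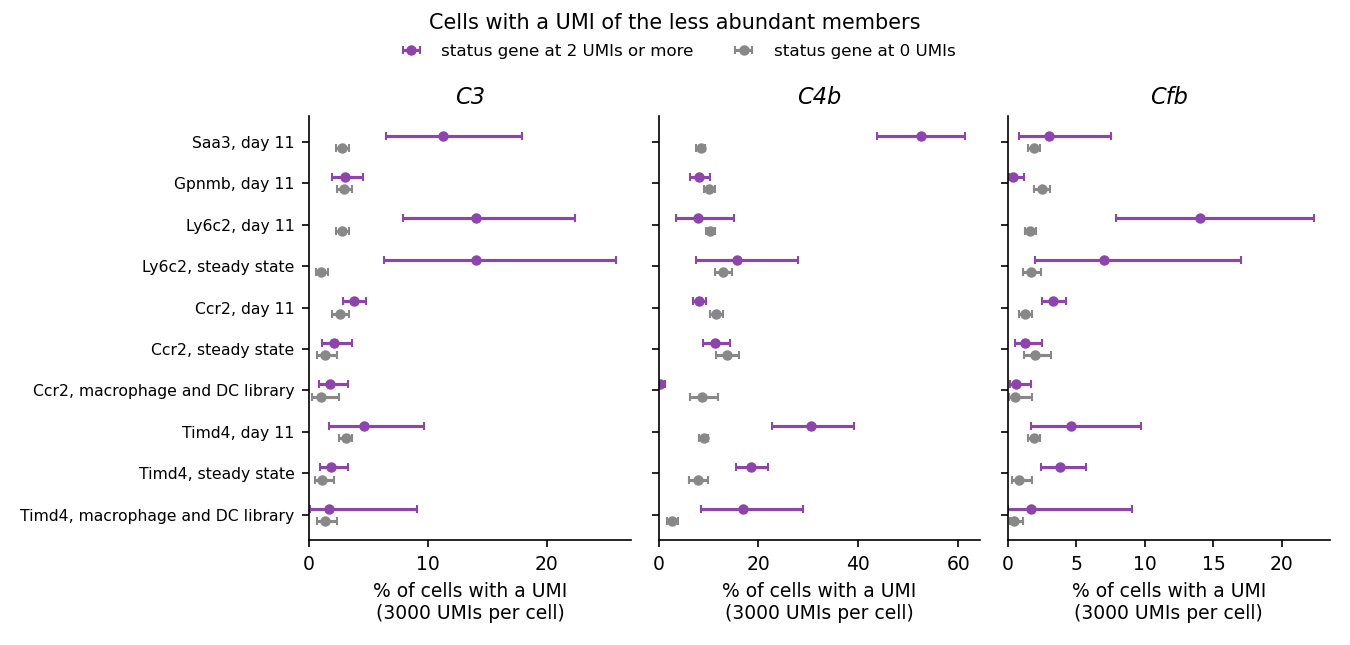
Percent of cells with a C3, C4b or Cfb UMI after thinning to 3000 UMIs, for cells positive (purple) and negative (grey) for each status gene, with exact 95% binomial intervals. C4b reaches 52.6% in Saa3 positive cells, and C3 and Cfb each reach 14.0% in Ly6c2 positive cells at day 11.

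Complement receptors and C1q were lower in Ccr2 positive cells, by less than 2-fold in both macrophage libraries. C5ar1 stood at 329.5 CPM in Ccr2 positive and 535 CPM in Ccr2 negative day 11 cells (ratio 0.62), and at 378 against 551 CPM at steady state (ratio 0.69). C3ar1 was 0.65 and 0.82 times, and the C1q sum 0.79 and 0.86 times, the level of negative cells. Cfb, at 14.2 CPM in Ccr2 positive and 5.34 CPM in Ccr2 negative day 11 cells, had a ratio of 2.65 (2.09 to 3.39), which made 1 of 9 members higher where 1.23% of genes were. Of its 256 UMIs in Ccr2 positive cells, 85 lay in the 87 cells that were also Ly6c2 positive (79.4 CPM). The 1515 Ccr2 positive cells without a Ly6c2 UMI held 9.76 CPM, which is under 2-fold above the Ccr2 negative cells. Monocyte markers, which include Ccr2, summed to 906 CPM in positive and 59.1 CPM in negative day 11 cells, and DC markers to 84.9 CPM against 13.3 CPM, and their part in the Cfb ratio was not tested. At steady state Cfb was 5.85 CPM in positive and 8.68 CPM in negative cells, 0.67 times, and 0 of 9 members passed 2-fold, where 0.887% of genes were higher and 0.614% lower.

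The macrophage and DC library gave far wider gaps by Ccr2 status. There 6 of the 7 members compared were at least 2-fold lower in 546 positive than in 525 negative cells, where 12.1% of genes were. C4b stood at 1.94 CPM (9 UMIs) in positive and 49.1 CPM (126 UMIs) in negative cells, and C5ar1 at 64.7 CPM against 418 CPM. Cfp was 1.76 times higher in positive cells. DC markers summed to 758 CPM in those positive and 268 CPM in those negative cells, and their part in the gaps was not tested.

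C3 and Cfb, the components of the alternative pathway convertase, were both higher in Ly6c2 positive cells, while C1q was lower. At day 11, C3 stood at 52.9 CPM in 100 positive and 12.1 CPM in 4163 negative cells, a ratio of 4.39 (3.33 to 5.70). Cfb stood at 72.5 CPM in positive and 7.29 CPM in negative cells, a ratio of 9.93 (7.73 to 12.7), and 7.43 (5.59 to 9.74) without the cell that held 23 of the 89 UMIs. Each was seen in 14.0% of thinned positive cells, against 2.77% of negative cells for C3 and 1.64% for Cfb. Without thinning, C3 was seen in 43 positive and 295 negative cells and Cfb in 29 positive and 216 negative cells. The C1q sum was 8771 CPM in positive and 19380.4 CPM in negative cells, 0.45 times, and the 3 chains were each past 2-fold lower. These are 2 members higher and 3 lower of 9, where 4.06% of genes were higher and 5.85% lower. Monocyte markers, which include Ly6c2, summed to 4615 CPM against 297 CPM, and fibroblast markers to 278 CPM against 282 CPM. Neutrophil markers (6 genes) summed to 134 CPM in positive and 42.7 CPM in negative cells, and DC markers to 93.6 CPM against 43.7 CPM. Their part in the C3 and Cfb ratios was not tested.

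At steady state C3 stood at 34.6 CPM in 57 Ly6c2 positive and 4.13 CPM in 1553 negative cells, a ratio of 8.38 (5.61 to 12.3), and at 14.0% against 0.97% of thinned cells. Cfb had 20 UMIs (16.9 CPM) in positive cells and 6.78 CPM in negative cells, a ratio of 2.49 (1.47 to 4.0), or 1.88 (1.02 to 3.22) without 1 cell. These 2 of 9 members were past 2-fold higher, where 2.56% of genes were. The C1q sum was 15407 CPM in positive and 20648 CPM in negative cells. The steady-state positive cells had a median of 19315 UMIs, against 10390 in negative cells, and held 1447 CPM of resident macrophage markers, against 1913 CPM. Neutrophil markers summed to 54.0 CPM in positive and 20.5 CPM in negative cells, and DC markers to 19.4 CPM against 22.3 CPM. The Ly6c2 positive cells of day 11 held 182 CPM of resident macrophage markers.

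In 769 Gpnmb positive day 11 macrophages, Cfb stood at 3.62 CPM, against 11.1 CPM in 3071 negative cells, 3.07-fold lower (2.13 to 4.57). It was the 1 of 9 members past 2-fold, where 3.52% of genes were lower. Monocyte markers summed to 166 CPM in positive and 561 CPM in negative cells, resident macrophage markers to 193 CPM against 444 CPM and DC markers to 22.9 CPM against 55.6 CPM, and their part in the Cfb difference was not tested. C3ar1 was higher by less than 2-fold, at 439 CPM in positive and 310.4 CPM in negative cells (ratio 1.41, 1.36 to 1.47), and was seen in 70.2% against 56.1% of thinned cells. Cfp was lower at 165 CPM in positive and 257 CPM in negative cells (ratio 0.64). The C1q sum hardly differed, at 18696 CPM in positive and 18865 CPM in negative cells.

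The 552 DCs of the macrophage and DC library had little complement RNA apart from Cfp. C1qa, C1qb and C1qc stood at 110.2, 150.3 and 85.7 CPM in DCs, against 3194, 3349 and 2347 CPM in the other cells. C3ar1 stood at 5.90 CPM in DCs and 114 CPM in other cells, and C5ar1 at 5.25 CPM in DCs and 191 CPM in other cells. The 7 members with enough UMIs were each at least 2-fold lower in DCs, where 12.9% of 8531 genes were. C3 (4 UMIs) and Cfb (1 UMI) were too few in DCs to compare. DC status required that no UMI of Fcgr1, which encodes CD64, was seen, and used no member.

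Cfp stood at 190.3 CPM in DCs and 435 CPM in other cells, and DCs were not alike. In 162 DCs with Cd209a UMIs Cfp stood at 459 CPM (426 to 495) and was seen in 67.3% of thinned cells. In 253 DCs with Xcr1 or Clec9a UMIs it stood at 64.9 CPM (56.1 to 74.7) and was seen in 18.2%. The same groups held 416 and 189 C1q CPM. The Cfp level of Cd209a DCs was near the 435 CPM of the non-DC cells, while their C1q was far below the 8890.0 CPM of those cells. The non-DC cells were mixed, however. Their 401 low-C1q cells, with 1243 CPM of DC markers, held 1916 of the 3479 Cfp UMIs. In the other 631 cells deep enough to thin, Cfp stood at 380.0 CPM.

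For each UMI of C3, C4b, C3ar1 and C5ar1 together there were 22.2 C1q UMIs at day 11, 25.6 in steady-state macrophages and 27.2 in the macrophage and DC library. The lowest value of the status groups was 14.1 in Ly6c2 positive day 11 cells, and the next 16.6 in Saa3 positive cells. The highest was 38.1 in Ccr2 positive cells of the macrophage and DC library. C4b alone ranged from 0.41 UMIs per 1000 C1q UMIs in those Ccr2 positive cells to 20.8 in Saa3 positive day 11 cells, while C5ar1 ranged from 13.5 to 36.6. C3ar1 ranged from 11.4 to 23.8.

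Across 21 groups of cells (the library and status groups, which share libraries and cells), levels on the log2(CPM + 10) scale were correlated as a description. The C1q sum followed C5ar1 with a Pearson r of 0.98 and C3ar1 with 0.96, C4b with 0.70, Cfb with 0.29, C3 with 0.25 and Cfp with 0.18. The groups include the DCs, which had the lowest C1qa (110.2 CPM), C5ar1 (5.25 CPM) and C3ar1 (5.90 CPM) levels. Over single day 11 macrophages the C1q sum followed C5ar1 with a Spearman rho of 0.19 and C3ar1 with 0.18. Across the 21 groups, C3 followed Cfb with a Pearson r of 0.83. Of 3322 other genes, those most like the C1q sum included Dhrs3, a retinal reductase (0.99), the Fc receptor gene Fcgr3 (0.99), Csf1r, the receptor for macrophage growth factors (0.98), and Sdc4 (0.97). Most like C3 were Hp, which encodes haptoglobin (0.97), Prdx5 (0.95), Msrb1 (0.95), Cers6 (0.94) and F10, which encodes coagulation factor X (0.94). Among those most like C5ar1 were Lamp2 (0.99), Dhrs3 (0.98), Itm2b (0.98) and Acp2 (0.98).

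Of 44 further complement genes listed, 43 were in the files and 12 reached 20 CPM in a library. Against steady-state macrophages 0 of these 12 were at least 2-fold higher at day 11 and 4 were lower. Of the 9123 genes compared between these libraries, 2.24% were at least 2-fold higher and 3.21% at least 2-fold lower. The median log2 ratio of the 12 was 0.01. Vsig4, a macrophage receptor for C3b, stood at 13.1 CPM at day 11 against 53.2 CPM, 4.06-fold lower. Fcna, a ficolin that starts the lectin pathway, was 3.93-fold lower, at 34.0 CPM at day 11 against 133.5 CPM, and the scavenger collectin gene Colec12 was 6.71-fold lower, at 10.1 CPM against 67.9 CPM.

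Against the macrophage and DC library, Vsig4 was also lower, at 13.1 CPM at day 11 against 31.1 CPM (2.38-fold), and was the one gene of the list past 2-fold in 1 direction against both libraries. Fcna (30.5 CPM there) was not lower at day 11 than in that library. Among the most abundant genes of the list, Calr, Itgb2, Itgam and C1qbp stayed under 2-fold. These 4 stood at 469, 226, 139 and 71.1 CPM at day 11, against 464, 199, 128 and 70.6 CPM in steady-state macrophages. Itgam and Itgb2 encode the subunits of a receptor for cleaved C3, and Calr a chaperone that binds C1q. Of the list, 11 genes had 0 UMIs in each library.

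**Figure D5:**
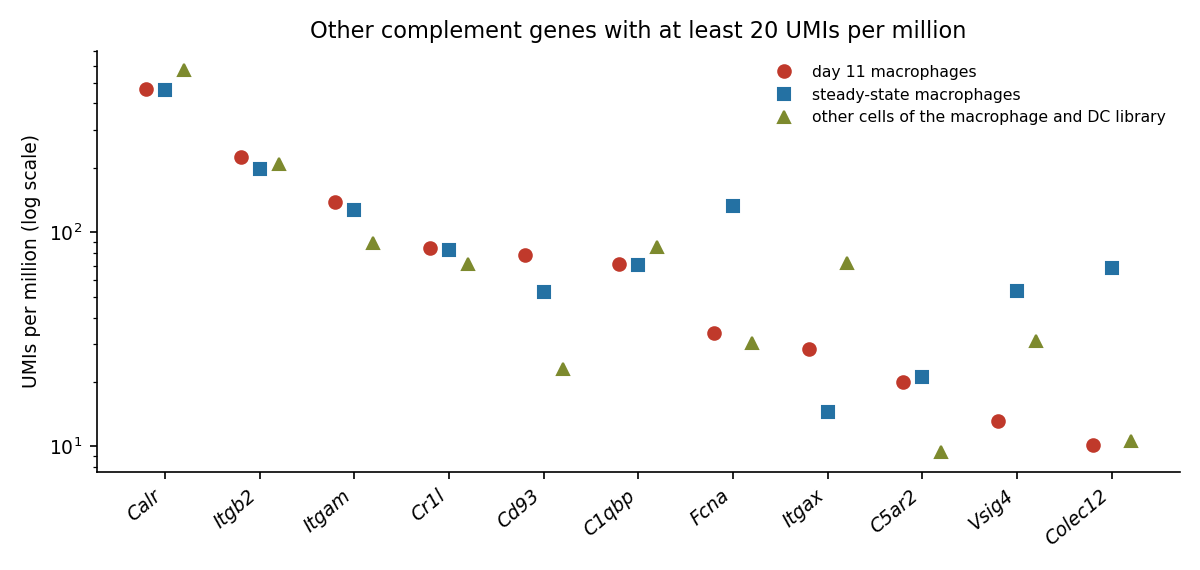
Level in CPM on a log scale of 11 of the 12 further complement genes that reached 20, in day 11 macrophages, steady-state macrophages and the non-DC cells of the macrophage and DC library. Fcna, Vsig4 and Colec12 lie lower at day 11 than in steady-state macrophages, and only Vsig4 of these 3 is also at least 2-fold lower than in the third library.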

How the data were processed

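Single heart cells were profiled with 10x 3′ chemistry in 3 libraries. The deposited values are raw UMI counts per gene and barcode, made with Cell Ranger and STAR on mm10, per the submitters' processing notes, with no version named. Totals were 45175863 UMIs over 4697 barcodes at day 11, 23710253 over 1806 in steady-state macrophages and 14388327 over 1780 in the macrophage and DC library. Nothing says how barcodes were called.

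Cells were kept with at least 500 genes and at most 10% mitochondrial UMIs, which removed 24, 39 and 13 barcodes. Scrublet's own threshold marked 0, 8 and 2 doublets, so the highest scores were removed at 0.8% per 1000 barcodes (175, 25 and 25). DC status needed UMIs of 2 of 8 DC markers and no Fcgr1 UMI (28, 6 and 552 cells). Cells with UMIs of 4 markers of 1 other type were left out (84, 37 and 0), a number set after seeing the data. Reporter transgenes were left out of totals.

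With 1 library per group there is no test. Ratios of CPM carry exact 95% binomial intervals, levels Poisson and shares Clopper-Pearson intervals, for counting error only, and shares were taken after thinning to 3000 UMIs (79, 0 and 158 shallower cells left out). Status sides under 30 cells were not compared. Genes were compared with at least 5 CPM on a side and 20 UMIs in all, and a ratio past 2 was counted. Ratios without the cell richest in a gene were added after seeing the data. The arithmetic was tested on simulated data.

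Members and gene lists were chosen with earlier results of these data known. All 9 members were described. From 44 further complement genes, those with 20 CPM in a library and a 2-fold difference in 1 direction from both steady-state libraries were to be named, with the most abundant 6, which include Fcna and C1qbp. Colec12, and the cell groups by C1q level, were named after values were seen. For likeness the top 5 genes by Pearson r with at least 50 CPM in a group were named. Of the genes these rules pick, 3 are not reported here. Positions are from GENCODE release M21 and sequences from RefSeq (GRCm38.p6). Tools were Python 3.11.15, scanpy 1.11.5, numpy 2.4.6, scipy 1.17.1, pandas 2.3.3 and matplotlib 3.10.9.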

Additional observations from a re-analysis of the deposited data

Results flagged for a closer look

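Cfb and Cfp differed in direction between libraries under the same split of cells. By Ccr2 status, Cfb was 2.65 times higher in positive cells at day 11 (2.09 to 3.39) and 0.67 times at steady state (0.47 to 0.95). Ccr2 positive day 11 cells without a Ly6c2 UMI held 9.76 Cfb CPM, under 2-fold above the 5.34 CPM of Ccr2 negative cells. By Ccr2 status, Cfp was 1.40 times higher in positive cells at day 11 (1.34 to 1.46) and 1.76 times in the macrophage and DC library (1.62 to 1.91), but 0.73 times in steady-state macrophages (0.70 to 0.77). By Ly6c2 status, Cfp was 1.14 times higher in positive cells at day 11 (1.02 to 1.27) and 0.65 times at steady state (0.58 to 0.73). The intervals lie on opposite sides of 1, but they cover counting error only. Without the positive cell richest in Cfp, the day 11 Cfp ratio by Ly6c2 status was 1.10 (0.98 to 1.23), an interval that spans 1. With 1 library per group the differences between libraries were not tested.

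Resident macrophage markers moved beside these ratios. They summed to 287 CPM in Ccr2 positive and 484 CPM in Ccr2 negative cells at day 11, and to 1312 CPM in positive and 2430.4 CPM in negative cells at steady state. Cfp and Cfb were higher in Timd4 positive cells in both libraries. Among cells without a Timd4 UMI, Ccr2 positive day 11 cells held 14.3 Cfb CPM and 282 Cfp CPM, against 4.81 and 186 CPM in cells with neither. At steady state Ccr2 positive cells without Timd4 held 6.01 Cfb CPM and 268 Cfp CPM, against 3.79 and 328 CPM in cells with neither. The part of resident macrophages in these ratios was not tested.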

How the results depend on the processing

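Of the counts of members past 2-fold and C1q ratios, 67 values under alternatives stayed within 1.5 times the main one (C1q ratios: its interval) and 15 moved; no member past 2-fold changed direction. Against the macrophage and DC library the count of 8 members became 4 with the mean of each cell's CPM, and 4 in cells with at least 3 macrophage markers, an alternative chosen after seeing the data. With status positive at 1 UMI or more, the counts became 1 for Timd4 at day 11, 1 for Timd4 at steady state, 0 for Gpnmb, 2 for Ly6c2 at day 11 and 1 for Ly6c2 at steady state. With cells thinned to 3000 UMIs they became 1, 1 and 3 for Timd4 at day 11, Timd4 at steady state and Ly6c2 at day 11. In cells with 0 Ccr2 UMIs the Timd4 counts became 1 for steady-state macrophages and 2 for the macrophage and DC library, with no share over all genes given. Without the positive cell richest in each gene, added after seeing the data, the counts became 1 for Timd4 at day 11, 1 for Ly6c2 at steady state and 2 for Saa3. Of these alternative counts, only that in cells with at least 3 macrophage markers has a share over all genes (7.67% higher). The other alternative counts have no background to be read against. C1q UMIs per UMI of C3, C4b and the receptors became 24.6 at steady state after thinning. Causes were not tested. No paired analysis was possible because each group is 1 library and the labels carry no replicate numbers. Depth limits C3, C4b and Cfb most: Cfb had 17 UMIs in the macrophage and DC library and 385 at day 11.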

Other observations

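Steady-state macrophages held 20 cells with under 10 C1q UMIs per 3000. Smooth muscle genes were among those most enriched in them: Acta2 stood at 689 CPM in these cells and 1.86 CPM in the rest, and Tagln at 260.0 CPM and 0.45 CPM. Chil3 stood at 674 CPM in the low-C1q cells and 13.2 CPM in the rest, and Cd209a at 703 CPM and 18.7 CPM. C3 gave 13 of its 131 steady-state UMIs in these 20 cells, 62.6 CPM against 5.36 CPM in the others. Unlike at day 11, Cfp was lower in the low-C1q cells, at 265 CPM (55 UMIs) against 390 CPM. Cfb was at 4.82 CPM (1 UMI) against 7.17 CPM.

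A few further complement genes were present at low levels and fell outside the rule for naming. C2, which stands beside Cfb on chromosome 17, gave 125 UMIs (3.05 CPM) at day 11 and 217 UMIs (9.76 CPM) in steady-state macrophages, 3.20-fold lower at day 11 with a counting interval of 2.55 to 4.02. C2 stood at 3.25 CPM (26 UMIs) in the macrophage and DC library, so day 11 was not 2-fold lower than that library. Of its exonic bases 42.8% are shared with Gm20547, so its level is uncertain like that of Cfb. C6 gave 31 UMIs at day 11 and 58 at steady state, 3.44-fold lower (2.19 to 5.51), but 0.76 CPM at day 11 against 0.88 CPM (7 UMIs) in the macrophage and DC library. Cd59a, an inhibitor of the membrane attack complex, gave 111 UMIs (2.71 CPM) at day 11 and 13 UMIs (0.58 CPM) at steady state, 4.64 times higher (2.60 to 8.98), and 0 UMIs in the macrophage and DC library. These 3 were chosen after their values were seen.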
